A study of Homo sapiens with 3 samples.

Results

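The comparison described here sets 1 stable line of KYSE30, the line carrying shRNA 2 against SNORD12B, against the control line of the same series, across all genes that were counted well enough to be compared. KYSE30 is an established cell line from a human squamous cell carcinoma of the esophagus. The members are the genes with at least 30 reads in at least 1 of these libraries, which kept 14794 of the 60554 genes in the deposited table. The series holds 3 libraries, and the comparison uses 2 of them. The third library, from a line with another hairpin (shRNA 1), is given beside the results as a value only, because its comparison would share the same control library.

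All the lines were cultured in RPMI-1640 with 10% serum, exposed to virus for 24 hours and then kept under blasticidin (5 ug/mL) for 2 weeks before Trizol extraction of total RNA. Both hairpins were carried in pLKO.1-blast, a lentiviral vector with blasticidin resistance. For the control, the genotype label reads vector and the protocol describes a scrambled hairpin without a mammalian target. The sources used here do not say whether each line is a clone or a pool of infected cells. Each line had 1 library, so no difference below has a replicate check and none carries a p-value. The intervals are exact at 95% and cover counting error only. They say nothing of how far another culture of the same line would lie. Levels are given in CPM, the counts of a gene per 1000000 counts of the library, with the library totals scaled by the TMM method. A ratio is the level in the shRNA 2 line over the level in the control line. In bulk RNA, fewer cells expressing a gene and less RNA per cell cannot be told apart.

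SNORD12B is a box C/D small nucleolar RNA. RNAs of this class lie in introns of host genes, are trimmed out of the spliced intron and form a particle with fibrillarin, NOP56, NOP58 and SNU13 that methylates the ribose of ribosomal RNA at positions chosen by base pairing. A short hairpin RNA is processed into a small interfering RNA that directs Argonaute to a matching transcript. Small nucleolar RNAs reside mostly in the nucleolus and are too short for many RNA-seq protocols to keep.

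The SNORD12B gene (ENSG00000222365.1) lies at chr20:49280319-49280409 of hg38 on the plus strand, within the host gene ZFAS1. Its sequence as annotated in GENCODE 29 is printed 5′ to 3′ with the box C (TGATGA, bases 12 to 17) and the box D (CTGA, bases 79 to 82) in capitals. It is shown because it is the transcript both hairpins were designed against.

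SNORD12B: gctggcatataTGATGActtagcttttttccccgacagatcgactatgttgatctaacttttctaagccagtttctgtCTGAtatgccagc

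SNORD12B had 7 reads in the control line, 15 in the shRNA 1 line and 1 in the shRNA 2 line. In the comparison this was 0.456 CPM (0.183 to 0.938) against 0.0573 CPM (0.00145 to 0.319), a ratio of 0.126 with an interval of 0.00279 to 0.979. The count was thus lower in the shRNA 2 line, at 1 read against 7. The gene fell short of the read minimum for well-counted genes. The upper bound of 0.979 lay just under 1, and upper-quartile scaling raised the ratio itself to 0.129. These reads are too few to set the size of the difference or to make its direction secure. The library labelled shRNA 1 was not lower at this gene, with 0.976 CPM, a ratio of 2.14 to the control whose interval of 0.823 to 6.21 included 1. The sister RNAs from the same host gave no usable value, with no read of SNORD12 in any library and 2, 2 and 0 reads of SNORD12C in the control, shRNA 1 and shRNA 2 lines. The host gene ZFAS1 had 12.1 CPM in the control line and 9.45 CPM in the shRNA 2 line (ratio 0.781, 0.630 to 0.969), and 14.1 CPM in the shRNA 1 line. Gene counts do not separate spliced from unspliced host RNA. The neighbouring gene ZNFX1, an RNA helicase, stood at 190.4, 179.7 and 246.0 CPM in the control, shRNA 1 and shRNA 2 lines, a ratio of 1.29 (1.23 to 1.35) for shRNA 2. ZFAS1 and ZNFX1 differed from the control in opposite directions.

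The control library held 15473922 reads in genes and the shRNA 2 library 17336936. Mitochondrial genes took 4.6% and 4.25% of them. Of 8 markers of squamous epithelium, 7 were well counted, and 5 of these lay below the control and 2 above it. TP63, the master factor of squamous epithelium, had 156.5, 79.7 and 134.5 CPM in the control, shRNA 1 and shRNA 2 lines, a ratio of 0.86 (0.812 to 0.910). KRT14, EPCAM, KRT6A and SOX2 were also below, at ratios of 0.564, 0.882, 0.293 and 0.372, and CDH1 and DSG3 above, at 1.07 and 1.39. KRT5, a defining keratin of that tissue, had 1, 3 and 2 reads in the control, shRNA 1 and shRNA 2 lines, so it was almost absent throughout. Summed fibroblast markers stood at 16.01, 9.37 and 13.7 CPM, nearly all of it COL1A1 (15.9, 9.24 and 13.2 CPM), with COL1A2, DCN, LUM, PDGFRA and THY1 at 0 in the libraries. Summed leukocyte markers stood at 2.08, 1.76 and 2.46 CPM. Summed endothelial markers stood at 4.03, 1.43 and 5.90 CPM, with KDR and TEK at 0. Most of the endothelial sum was CDH5, at 2.60, 0.846 and 5.21 CPM (ratio 2.00, 1.37 to 2.98), the 1 endothelial marker that was well counted.

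Most genes lay close to the control. Of the well-counted genes, 12611 (85.2%) were within 1.5-fold, the median log2 ratio was -0.002, and the quartiles stood at -0.241 and 0.245. At least 2-fold higher were 277 genes (1.87%) and at least 2-fold lower 284 (1.92%). The whole counting interval lay past 2-fold for 49 genes (0.331%) on the higher side and 96 (0.649%) on the lower side. The share past 2-fold in either direction was 12.5% among genes under 5 CPM and 0.974% among those of at least 100 CPM. These shares are the background for every count given for a gene group below: 49.8% of all well-counted genes lay above the control and 50.2% below it.

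**Figure D1:**
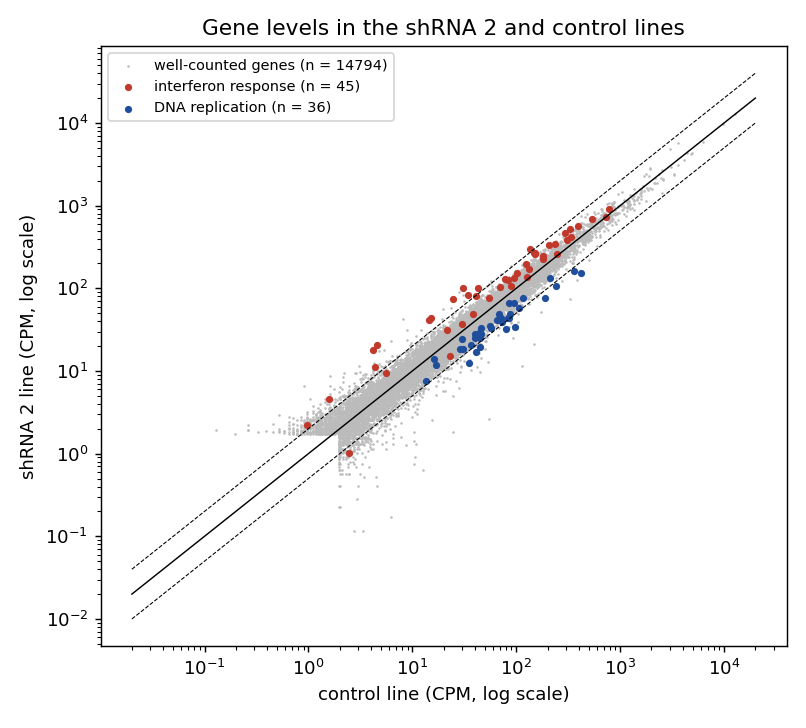
Level of each well-counted gene in the control line (x axis) and the shRNA 2 line (y axis), both in CPM on log scales, 1 library each. Grey points are all 14794 genes, red points 45 interferon response genes, blue points 36 DNA replication genes, the solid line marks equal levels and the dashed lines 2-fold. The red points lie mostly above the solid line, and all the blue points lie below it.

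Among protein-coding genes of at least 5 CPM in the higher library, the order by the counting bound nearest to no difference was led by BATF2, a basic leucine zipper factor. BATF2 (chr11:64987943-64997045) had 0.911 CPM in the control line, 0.651 in the shRNA 1 line and 6.65 in the shRNA 2 line. That is 14 reads against 116 and a ratio of 7.30 (4.18 to 13.8). It was followed by KIF21B, a kinesin motor, at 1.63, 1.24 and 8.59 CPM in the same order (ratio 5.28, 3.44 to 8.42). For both genes only the shRNA 2 line stood above the control level. The ratios of the shRNA 1 line to the control, 0.714 (0.284 to 1.73) and 0.76 (0.396 to 1.44), had intervals that included 1. ABCA1, the exporter of cholesterol to lipid-poor apolipoprotein, had 6.25, 9.50 and 23.2 CPM, a ratio of 3.71. TSC22D3, a leucine zipper protein induced by glucocorticoids, had 8.85, 6.31 and 31.2 CPM, a ratio of 3.53. LAMP3, a lysosomal membrane glycoprotein, had 28.0, 29.5 and 90.6 CPM, a ratio of 3.23 (2.90 to 3.60). CYP4V2, a fatty acid hydroxylase, stood at 2.15, 5.79 and 8.48 CPM. The 12 highest also held MX2, XAF1, IFITM1 and IFI27, which belong to the interferon response, and COL5A1 and VIM, which are described with the mesenchymal genes.

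The lowest genes reached further from the control than the highest. TCIM, a small regulator of transcription and immune responses, had 96 reads in the control line and 3 in the shRNA 2 line, a ratio of 0.0275 (0.00558 to 0.0829), and 2 in the shRNA 1 line. SESN3, a stress-induced sestrin that restrains mTORC1, stood at 12.6, 0.325 and 0.630 CPM in the control, shRNA 1 and shRNA 2 lines. SLC2A3, the glucose transporter GLUT3, stood at 24.8, 0.390 and 1.83 CPM. In each of these 3 genes the control library alone was high. The same order held for MARK1 (10.4, 0.195 and 0.745 CPM), NREP (10.5, 0.521 and 0.917), VIT (10.9, 0.195 and 1.32), FREM2 (10.5, 0.651 and 1.43), KLHL13 (8.65, 0.260 and 1.26) and C1orf21 (24.7, 2.15 and 5.04). CDCA7, a chromatin-associated cell cycle gene, was different. It had 45.2 CPM in the control line, 59.1 in the shRNA 1 line and 9.68 in the shRNA 2 line, a ratio of 0.214 (0.180 to 0.254), so the shRNA 2 library alone was low.

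**Figure D2:**
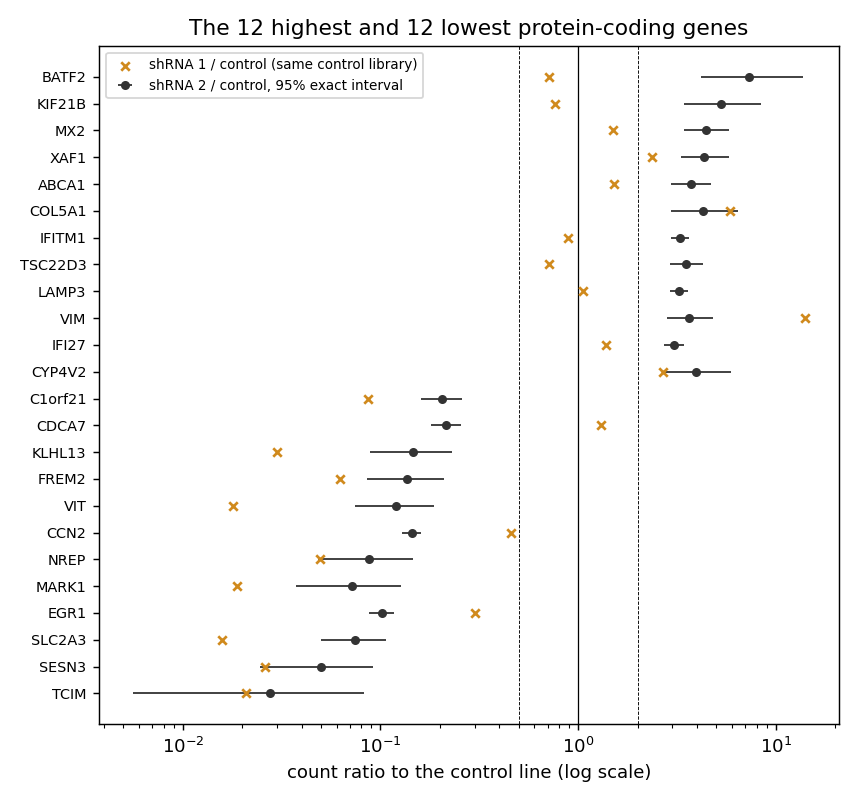
Count ratio to the control line, on a log scale, for the 12 highest and 12 lowest protein-coding genes. Black points with bars are the shRNA 2 line with its 95% exact interval and orange crosses the shRNA 1 line over the same control library, without interval. BATF2 is highest at 7.30 and TCIM lowest at 0.0275. The crosses of BATF2, KIF21B, IFITM1, TSC22D3 and CDCA7 lie on the other side of 1 from their points. For BATF2, KIF21B and IFITM1 the shRNA 1 interval, not drawn, includes 1.

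Genes of other types were led on the higher side by PRAL (ratio 3.78), IGFL2-AS1 (12.1 CPM in the control line and 31.3 in the shRNA 2 line), VIM-AS1 and LINC00342 (ratio 2.21). PRAL and VIM-AS1 share 77.2% and 32.2% of their exonic length with genes on the opposite strand, so their reads may belong to those genes. On the lower side stood H19, an imprinted long non-coding RNA, at 329.7 CPM in the control line, 24.5 in the shRNA 1 line and 73.7 in the shRNA 2 line (ratio 0.224, 0.210 to 0.238). The remaining lowest genes were the pseudogene KRT16P6 (ratio 0.207), which may share reads with the keratin 16 gene family, STARD4-AS1 (0.249) and the pseudogene RPS20P14 (0.295). By amount of RNA, FTH1, the ferritin heavy chain, stood out with 3597 CPM in the control line and 5754 in the shRNA 2 line, a ratio of 1.6, but 62.4% of its exonic length overlaps genes on the opposite strand. BEST1 beside it (ratio 1.63) shares that stretch, and the source of its reads is uncertain. ALDH1A3, a retinaldehyde dehydrogenase, had 417.5, 922.4 and 739.6 CPM in the control, shRNA 1 and shRNA 2 lines (ratio 1.77), with 27.5% of its exonic length overlapped on the opposite strand. MKNK2, a kinase of the translation factor eIF4E, had 280.6, 165.7 and 466.2 CPM (ratio 1.66).

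The interferon response genes were higher in the shRNA 2 line almost throughout. These genes are switched on when interferon receptors activate JAK kinases and a transcription factor complex that binds the interferon-stimulated response element, and their products restrict viral entry, translation and RNA stability. Of 48 genes listed, 45 were well counted, 43 of these lay above the control and 2 below, and 12 were at least 2-fold higher, against 1.87% of all well-counted genes. The median log2 ratio was 0.597, beside -0.002 for all well-counted genes. In 42 of the 45 the whole counting interval lay above 1, which held for 26.1% of all well-counted genes.

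Promoter sequence is shown for the pair of interferon genes with the largest ratios among those that hold the element. The 250 bases before each RefSeq gene start were searched on both strands for GAAA, any 2 bases and GAAA again, the core of the interferon-stimulated response element. It was present in 21 of 35 interferon genes with a promoter in the table and in 1061 of 35116 promoters in all (3.02%). Among promoters of well-counted genes it was present in 368 of 15083 (2.44%). The stretches are printed from GRCh38.p14 in the direction of transcription, with the matches in capitals, a match on the other strand reading TTTC, any 2 bases and TTTC. That of IFITM1 lies at chr11:313975-314034 on the plus strand, 65 to 6 bases before the start, and that of IFI27 at chr14:94110603-94110662 on the plus strand, 133 to 74 bases before it. A match describes letters and is not a measured binding site.

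IFITM1: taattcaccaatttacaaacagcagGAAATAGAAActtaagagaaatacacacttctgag

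IFI27: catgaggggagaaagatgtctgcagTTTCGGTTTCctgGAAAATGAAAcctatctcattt

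IFITM1, which blocks the fusion of enveloped viruses, had 30.7 CPM in the control line, 27.4 in the shRNA 1 line and 100.3 in the shRNA 2 line, a ratio of 3.27 (2.95 to 3.62). IFI27, an interferon-induced mitochondrial protein, stood at 24.5, 33.8 and 74.9 CPM (ratio 3.05, 2.72 to 3.43). MX2, a dynamin-like GTPase that hinders nuclear import of viral genomes, had 4.62, 6.96 and 20.5 CPM (ratio 4.43, 3.42 to 5.80). In these genes the shRNA 2 library was the highest of the 3. XAF1, a pro-apoptotic partner of XIAP, had a ratio of 4.35 (3.31 to 5.78), with 38.3% of its exonic length shared with the opposite strand. TRIM22, IFI44L, BST2, SAMD9L and IFI6 had ratios of 2.90, 2.89, 2.43, 2.39 and 2.21. Other members lay closer to the control. ISG15, a ubiquitin-like modifier, had 789.2 and 913.2 CPM in the control and shRNA 2 lines (ratio 1.16), OASL 728.9 and 734.9 CPM (ratio 1.01, 0.983 to 1.03), and IFIT1 333.8 and 412.5 CPM (ratio 1.24). STAT2, a transcription factor of the pathway, had a ratio of 1.66. The 2 genes below the control were IRF7 (2.47 and 1.03 CPM, ratio 0.417, 0.224 to 0.749) and GBP2 (23.2 and 15.01 CPM, ratio 0.646). In the shRNA 1 line, over the same control library, 14 of the 45 lay above the control and 31 below, with a median log2 ratio of -0.15. The IFITM and IFIT genes have close copies among which reads may be split, and IFITM3 (ratio 1.59) overlaps an opposite-strand gene.

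Genes of antigen presentation by MHC class I were also mostly above the control, in 14 of 15 well-counted genes, with a median log2 ratio of 0.505 and none past 2-fold. The immunoproteasome subunits PSMB8 and PSMB10 had ratios of 1.92 and 1.61, and NLRC5, the transactivator of these genes, 1.66. PSMB8 overlaps genes on the opposite strand over 21.2% of its exons. TAP2, a subunit of the peptide transporter, was the 1 gene below, at 30.7 and 28.8 CPM (ratio 0.937, 0.824 to 1.06). The median in the shRNA 1 line was -0.207.

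The interferons themselves and their receptors were listed after the values had been seen. IFNB1, interferon beta, had 41 reads in the control line, 12 in the shRNA 1 line and 41 in the shRNA 2 line, a ratio of 0.881 (0.557 to 1.39). IFNL1, a type III interferon, had 346, 168 and 464 reads, a ratio of 1.18. IFNL3 had 234, 137 and 466 reads, a ratio of 1.75 (1.495 to 2.06), with IFNL2 (ratio 1.19) a near-identical copy. Interferon mRNA was therefore counted in the control line too. Among receptor components, IFNAR1 had a ratio of 1.39 and IFNAR2 1.47, and the kinase JAK2 had 1.70. IFNGR1 and TYK2 lay slightly below the control, at 0.957 (0.860 to 1.07) and 0.928 (0.848 to 1.02).

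**Figure D3:**
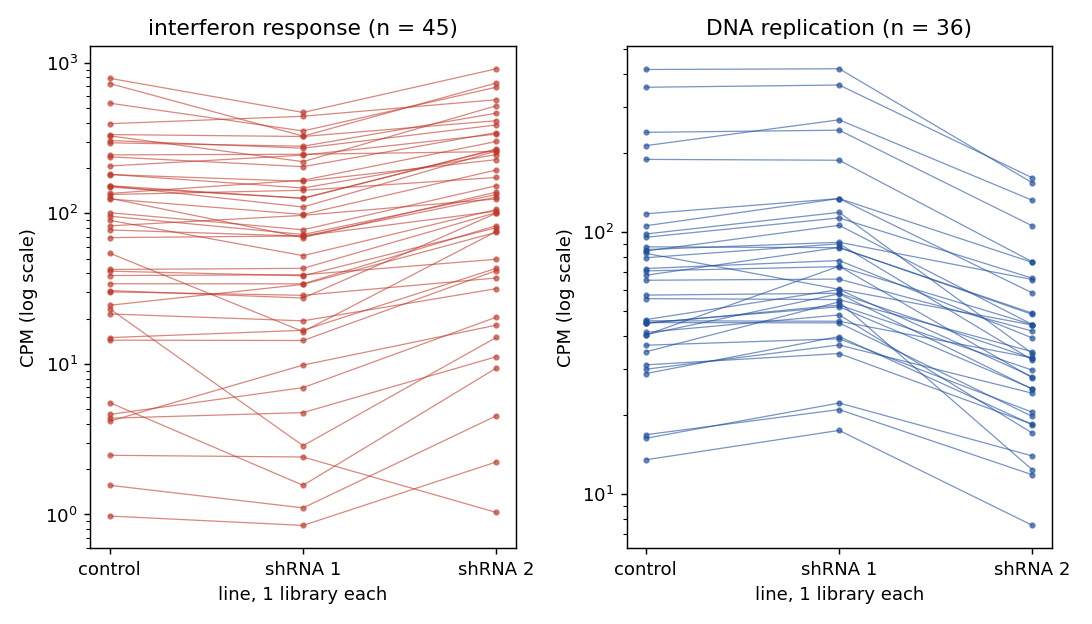
Levels in CPM (log scale) of 45 interferon response genes (left) and 36 DNA replication genes (right) in the control, shRNA 1 and shRNA 2 lines, 1 library each. Each line joins the values of 1 gene; from the control to shRNA 2, 43 of the 45 interferon genes go up and all 36 replication genes go down, while in the shRNA 1 line 14 and 30 lie above the control.

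DNA replication genes formed the group furthest below the control. The MCM2 to MCM7 helicase is loaded on origins by ORC, CDC6 and CDT1, activated by CDC45 and the GINS complex, and followed by the polymerases, the RFC clamp loader and the sliding clamp PCNA. All 36 listed genes were well counted and all 36 lay below the control. Of these, 9 were at least 2-fold lower, against 1.92% of all well-counted genes, and in 35 the whole counting interval lay below 1, against 27.7%. The median log2 ratio was -0.78, and in the shRNA 1 line over the same control it was 0.199, with 30 genes above and 6 below.

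Many promoters of such genes bind E2F factors. The 250 bases before the start were searched on both strands for TTTNNCGC, a core of the E2F motif. It was present in 13 of 30 replication genes with a promoter in the table (43.3%) and in 2078 of 35116 promoters in all (5.92%). Among promoters of well-counted genes it was present in 1242 of 15083 (8.23%). The pair furthest below the control among those holding it is printed from GRCh38.p14, in the direction of transcription, with overlapping matches merged in capitals. A match on the other strand reads GCGNNAAA. The MCM6 stretch lies at chr2:135876561-135876620 on the minus strand, 177 to 118 bases before the start, and the GINS2 stretch at chr16:85688955-85689014 on the minus strand, 60 to 1 bases before it.

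MCM6: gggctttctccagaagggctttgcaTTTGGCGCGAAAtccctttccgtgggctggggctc

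GINS2: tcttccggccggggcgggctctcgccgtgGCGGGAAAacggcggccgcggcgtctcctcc

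MCM6 had 98.1 CPM in the control line, 118.7 in the shRNA 1 line and 34.3 in the shRNA 2 line, a ratio of 0.349 (0.317 to 0.384). The other helicase subunits had ratios of 0.369 for MCM4 (416.9 and 153.8 CPM in the control and shRNA 2 lines), 0.406 for MCM2, 0.439 for MCM3, 0.451 for MCM7 and 0.524 for MCM5. All 6 subunits were thus between 0.349 and 0.524 of the control. MCM10, a replisome activator, had a ratio of 0.354, the loaders CDC6 and ORC1 had 0.406 and 0.438, and GINS2 had 0.412 (41.3 and 17.02 CPM). PCNA had 213.4, 267.8 and 131.9 CPM in the control, shRNA 1 and shRNA 2 lines, a ratio of 0.618. The gene closest to the control was POLA1, the catalytic subunit of polymerase alpha, with a ratio of 0.856, and its interval of 0.714 to 1.03 included 1.

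Genes of G1/S control were mixed, with 10 of 28 above the control, 18 below and a median log2 ratio of -0.323. CCNE1, cyclin E1, which drives entry into S phase with CDK2, had 12.4 CPM in the control and shRNA 1 lines and 4.87 in the shRNA 2 line (ratio 0.392, 0.300 to 0.509). E2F2 had a ratio of 0.476, UHRF1, which recruits the maintenance DNA methyltransferase to replicated DNA, 0.483, and E2F1 0.541. The genes above the control were led by CDK inhibitors. CDKN1C, which encodes p57, had 1.11 and 3.27 CPM (ratio 2.95, 1.69 to 5.41), CDKN2B, which encodes p15, 79.5 and 134.1 CPM (ratio 1.69), and CDKN2D a ratio of 1.56. CDKN1A, which encodes p21, had 194.0 and 234.1 CPM (ratio 1.21).

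Mitotic genes were more often above the control than below it, but went both ways. Of 27, 18 were above the control and 9 below, with a median log2 ratio of 0.114 and none past 2-fold. The whole counting interval lay above 1 in 14 of them and below 1 in 8, against 26.1% and 27.7% of all well-counted genes. ASPM, a spindle pole protein, had 115.2 and 170.8 CPM (ratio 1.48, 1.40 to 1.57), the kinetochore proteins CENPF and CENPE had ratios of 1.37 and 1.36, and TOP2A, the topoisomerase of chromosome condensation, had 1.34. The lowest, BIRC5, which encodes survivin, had a ratio of 0.777. The median of the shRNA 1 line was 0.254.

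Histone genes of the clusters were listed after their chromosome region had stood out. Of 65 names, 61 were in the table and 25 well counted, 23 above the control and 2 below, with a median log2 ratio of 0.637. H2AC6 had 75.9, 31.0 and 132.0 CPM in the control, shRNA 1 and shRNA 2 lines (ratio 1.74). H3C6 had 7.68, 5.47 and 15.4 CPM (ratio 2.01, 1.61 to 2.51), and H2BC12 109.4, 60.5 and 110.6 CPM (ratio 1.01). In the shRNA 1 line 0 of the 25 lay above the control and the median was -0.848. Clustered histone genes have near-identical copies among which reads may be split.

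Ribosome biogenesis genes were below the control in 26 of 29 cases, with a median log2 ratio of -0.589 and 24 whole intervals below 1. None was past 2-fold. RRP12, an export factor of pre-ribosomes, had 56.6 and 30.5 CPM (ratio 0.538, 0.483 to 0.601). BOP1, part of the PeBoW complex of large subunit maturation, had 109.9, 170.6 and 60.8 CPM in the control, shRNA 1 and shRNA 2 lines (ratio 0.553), and WDR12 of the same complex had a ratio of 0.575. BYSL, which acts in small subunit assembly, had 0.555. The shRNA 1 line lay on the other side, with 28 of 29 genes above the same control and a median of 0.50. NPM1, the nucleolar chaperone, was among the 6 greatest losses of RNA by genes at least 1.5-fold lower, at 1358, 1770 and 878.2 CPM (ratio 0.647).

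The proteins that bind or assemble box C/D RNAs, the class to which SNORD12B belongs, were below the control in 11 of 12 cases, with a median log2 ratio of -0.396. NOP56, a core protein of the particle, had 129.9, 242.1 and 75.6 CPM in the control, shRNA 1 and shRNA 2 lines (ratio 0.582, 0.542 to 0.624). FBL, fibrillarin, the methyltransferase, had 163.8, 204.7 and 119.5 CPM (ratio 0.729), and NOP58 had 63.2, 110.7 and 53.1 CPM (ratio 0.839). The assembly factors NUFIP1 and RUVBL1 had ratios of 0.685 and 0.724. RPAP3, a co-chaperone of assembly, was above at 1.11 (0.976 to 1.27).

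For the ribosomal proteins of the cytosol, 71 of 79 genes lay below the control, with a smaller median of -0.218. RPL36A was the 1 gene past 2-fold (ratio 0.491), RPL26 had 0.566 and RPS15A 0.575, and RPL28 was highest at 1.19. Ribosomal protein genes have many processed pseudogenes that may take a share of their reads. The 13 mitochondrially encoded mRNAs were all below the control (median log2 ratio -0.221), from MT-ATP8 at 0.766 to MT-CO1 at 0.990. With total-count, DESeq2 or upper-quartile scaling MT-CO1 lay above the control and the others below. Both groups had similar medians in the shRNA 1 line, -0.178 and -0.172.

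Most heat shock and proteasome genes were below the control as well. HSP90AB1, the constitutive HSP90, had the largest loss of RNA of any gene at least 1.5-fold lower, from 2521 CPM in the control line to 1436 in the shRNA 2 line (ratio 0.570), with 2819 CPM in the shRNA 1 line. HSPA8, the constitutive HSP70, had 951.4, 1776 and 662.9 CPM, and HSPD1, the mitochondrial chaperonin, 1296, 1726 and 926.3 CPM. In the whole heat shock list 13 of 14 genes were below, with a median log2 ratio of -0.356 against 0.458 in the shRNA 1 line. The stress-inducible HSPA1A and HSPA1B, near-identical copies, had ratios of 0.989 and 0.971. Of 30 proteasome genes, 29 were below (median -0.253), with PSMA5 lowest at 0.660. Of 37 nuclear genes of the respiratory chain, 34 were below (median -0.184). Tubulins and their folding factors, listed after TUBB (1768 and 1127 CPM, ratio 0.638) and TUBA1B (1150 and 749.1 CPM, ratio 0.651) were seen among these losses, were below in 15 of 18 cases (median -0.423).

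Hypoxia and glycolysis genes were below the control in 28 of 33 cases, with a median log2 ratio of -0.414. SLC2A3 was lowest, as given above, followed by ANGPTL4, an inhibitor of lipoprotein lipase, at 19.7, 9.50 and 5.67 CPM in the control, shRNA 1 and shRNA 2 lines (ratio 0.289, 0.228 to 0.363), and ENO2, enolase 2, with a ratio of 0.458. The glucose transporter SLC2A1 was not lower, at 200.4 and 220.8 CPM (ratio 1.10), and the lactate exporter SLC16A3 had 873.5 and 1119 CPM (ratio 1.28). LDHB, a subunit of lactate dehydrogenase, was among the 6 greatest losses of RNA by genes at least 1.5-fold lower, at 602.0 and 326.3 CPM (ratio 0.542).

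Targets of ATF4, the factor translated when amino acids run short or the endoplasmic reticulum is stressed, were above the control in 21 of 25 cases, with a median log2 ratio of 0.309. PCK2, mitochondrial phosphoenolpyruvate carboxykinase, had 30.5, 17.2 and 83.4 CPM in the control, shRNA 1 and shRNA 2 lines (ratio 2.73, 2.46 to 3.04). TRIB3, a pseudokinase that feeds back on ATF4, had 88.2, 66.3 and 187.6 CPM (ratio 2.13), the cystine transporter SLC7A11 56.9, 31.6 and 115.2 CPM (ratio 2.03), and ASNS, asparagine synthetase, 142.1, 78.2 and 275.5 CPM (ratio 1.94). In these 4 genes the shRNA 2 library was the highest and the shRNA 1 library the lowest, and 1 of the 25 genes lay above the control in the shRNA 1 line. Chaperones of the endoplasmic reticulum, which belong to other arms of the stress response, were below the control in 14 of 18 cases with a median of -0.079. SDF2L1 and MANF had ratios of 0.714 and 0.745, and SEL1L was above at 1.44.

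Targets of NRF2, the factor of the oxidative stress response, were above the control in 14 of 21 cases (median log2 ratio 0.171), with ALDH3A1, an aldehyde dehydrogenase, at 19.7, 32.9 and 56.7 CPM (ratio 2.89, 2.54 to 3.29) and CYP4F11 at a ratio of 1.78. Lysosome and autophagy genes were above in 23 of 30 cases (median 0.177). GAA, acid alpha-glucosidase, had a ratio of 1.44 and GLA, alpha-galactosidase, 0.690. Cholesterol synthesis genes were below in 20 of 25 cases (median -0.19). SREBF1, which encodes the factor SREBP1 of lipid synthesis, was higher, at 479.1, 580.8 and 781.9 CPM (ratio 1.63), and the 13 fatty acid synthesis genes were divided, 6 above and 7 below. Among p53 targets 14 of 21 were above, with GDF15 at 1.66 and AEN at 0.672.

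**Figure D4:**
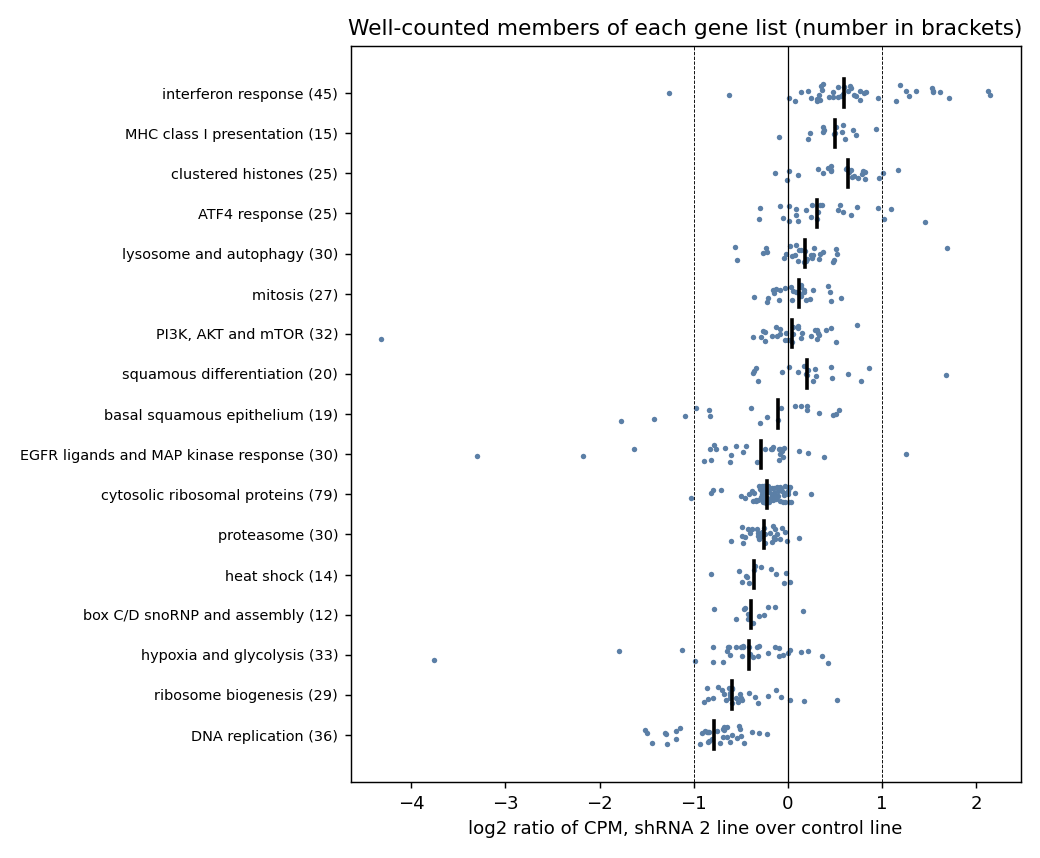
Log2 ratio of CPM, shRNA 2 line over control line (x axis), of the well-counted members of 17 gene lists, with the number of genes in brackets. Each point is 1 gene, black bars are medians and dashed lines mark 2-fold; the medians run from 0.637 for the clustered histones to -0.78 for DNA replication.

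Growth factor response genes were below the control in 26 of 30 cases, with a median log2 ratio of -0.286. EGR1, an immediate early transcription factor induced by MAP kinase signalling (chr5:138465490-138469315), had 113.9 CPM in the control line, 34.2 in the shRNA 1 line and 11.6 in the shRNA 2 line, a ratio of 0.102 (0.0874 to 0.118). FOS, another immediate early gene, had 28.4, 8.39 and 6.30 CPM (ratio 0.222). AREG, amphiregulin, an EGFR ligand, had 387.3, 120.7 and 124.7 CPM (ratio 0.322, 0.306 to 0.338), and EREG, epiregulin, 152.3, 97.0 and 82.0 CPM (ratio 0.539). The control library was the highest of the 3 for each of these genes. BTC, betacellulin, another EGFR ligand, differed, at 6.44, 6.31 and 15.4 CPM (ratio 2.38, 1.89 to 3.03), and HBEGF had a ratio of 1.16 (0.988 to 1.35). MYC had 131.2, 142.0 and 73.7 CPM (ratio 0.562).

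CCN2 and CCN1, secreted matricellular proteins and targets of YAP, were low in the shRNA 2 line. CCN2 had 148.9, 67.9 and 21.4 CPM in the control, shRNA 1 and shRNA 2 lines (ratio 0.144, 0.129 to 0.161), and CCN1 496.6, 549.9 and 219.7 CPM (ratio 0.443, 0.426 to 0.460). The YAP target list as a whole was divided, with 10 of 22 genes above the control, 12 below and a median log2 ratio of -0.129. RBMS3 was its 1 gene at least 2-fold higher, with 11 reads in the control line and 36 in the shRNA 2 line (ratio 2.88, 1.435 to 6.28). Inflammatory genes were also divided, 6 of 17 above and 11 below. PTGS2, cyclooxygenase 2, had 11.1, 2.80 and 2.98 CPM (ratio 0.268) and CXCL8, interleukin 8, 31.4, 13.4 and 13.1 CPM (ratio 0.417), whereas CXCL10, a chemokine induced by interferon, had 13.2, 12.1 and 22.1 CPM (ratio 1.67, 1.41 to 1.99).

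Squamous identity genes went both ways. Of 19 basal genes, 8 were above the control and 11 below. KRT6A, a keratin of activated keratinocytes, had 174.6, 89.1 and 51.2 CPM (ratio 0.293, 0.272 to 0.317), SOX2, a lineage factor of squamous cancers, 104.0, 12.04 and 38.7 CPM (ratio 0.372, 0.340 to 0.408), and KRT17 94.54, 15.3 and 52.8 CPM (ratio 0.558). The control library was the highest for all these genes. The hemidesmosome integrin ITGB4 was higher in the shRNA 2 line, at 1948, 1639 and 2841 CPM (ratio 1.46), as were LAMA3 (1.43) and the desmosomal cadherin DSG3 (1.39). Of the 20 well-counted genes of squamous differentiation, 15 were above, with IVL, involucrin, at 16.3, 17.8 and 29.6 CPM (ratio 1.81, 1.55 to 2.11). KRT6A, KRT6B and KRT17 have close copies among which reads may be split.

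Genes usually seen in mesenchymal cells were 8 above and 7 below. At least 2-fold higher were 4 (26.7%, against 1.87% of all well-counted genes) and at least 2-fold lower 1 (6.67%, against 1.92%). VIM, vimentin, had 4.75 CPM in the control line, 66.6 in the shRNA 1 line and 17.4 in the shRNA 2 line (ratio 3.66), with 25.4% of its exonic length shared with the opposite strand. CDH2, N-cadherin, had 1.56, 10.1 and 4.70 CPM (ratio 3.01), and ZEB1 1.17, 3.51 and 2.98 CPM (ratio 2.54, 1.46 to 4.62). COL5A1, a member of the collagen list and not in the counts just given, had 2.21, 12.95 and 9.51 CPM (ratio 4.30, 2.96 to 6.42). For these genes the shRNA 2 line lay between the control and the shRNA 1 line. For ZEB1 that order rested on 54 reads in the shRNA 1 line and 52 in the shRNA 2 line. For CDH2, ZEB1 and COL5A1 the intervals of both hairpin lines, each over the control, overlapped. TAGLN, transgelin, did not follow that order, at 0.976, 1.11 and 2.69 CPM (ratio 2.76, 1.52 to 5.31), with the shRNA 2 line highest. TNC, tenascin C, was below, at 66.7, 24.9 and 27.5 CPM (ratio 0.412), and THBS1, thrombospondin 1, at 350.6, 539.6 and 203.7 CPM (ratio 0.581). Epithelial junction genes were above in 19 of 25 cases (median log2 ratio 0.159), with the splicing regulator ESRP1 at 1.47. Summed fibroblast markers, of which COL1A1 makes up nearly all, stood at 16.01 CPM in the control line and 13.7 in the shRNA 2 line, and their part in these values was not tested.

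Among signalling lists, WNT genes were below in 15 of 22 cases (median log2 ratio -0.251), with LEF1, the nuclear partner of beta-catenin, at 10.1, 6.77 and 3.72 CPM (ratio 0.369) and the receptor FZD1 at 29.5, 6.51 and 11.5 CPM (ratio 0.389). Notch genes were below in 13 of 15 cases (median -0.28), with the ligand JAG1 at 185.0, 119.9 and 115.8 CPM (ratio 0.626). TGF-beta and BMP response genes were 10 above and 13 below, led by the ligand BMP7 at a ratio of 0.377. Receptor tyrosine kinases were 10 above and 8 below, with FGFR2 at 10.4, 1.04 and 1.83 CPM (ratio 0.177) and EPHB6 at 2.80, 6.96 and 9.34 CPM (ratio 3.34). The PI3K, AKT and mTOR list had 18 genes above and 14 below the control, with a median of 0.048, next to -0.002 for all well-counted genes. Besides SESN3, none was past 2-fold, and the lipid phosphatase INPP4B had a ratio of 1.66. Integrins were 8 above and 3 below, and collagens 7 above and 8 below.

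Across the nuclear chromosomes, the medians of the well-counted genes ran from -0.176 on chromosome 13 (241 genes, 1 at least 2-fold higher and 8 lower) and -0.121 on chromosome 22 to 0.144 on chromosome 21 (149 genes, 7 and 1). The shRNA 1 line had -0.101, -0.125 and 0.173 there, over the same control library. In windows of 25 neighbouring protein-coding genes, the highest median was 0.423, at chr6:25962802-27135291, from TRIM38 to H2AC11. Of its genes, 23 lay above the control and 2 below, 14 were histone genes, and H3C6 was the 1 gene past 2-fold. The same window had a median of -0.502 in the shRNA 1 line. The lowest median, -0.474, was at chr13:102784281-113490952, at the end of the long arm, with 3 genes above and 22 below, and -0.354 in the shRNA 1 line. COL4A1, a chain of basement membrane collagen, had 84.6, 60.5 and 33.9 CPM there (ratio 0.401, 0.363 to 0.442), and MCF2L, a guanine nucleotide exchange factor, a ratio of 0.453.

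**Figure D5:**
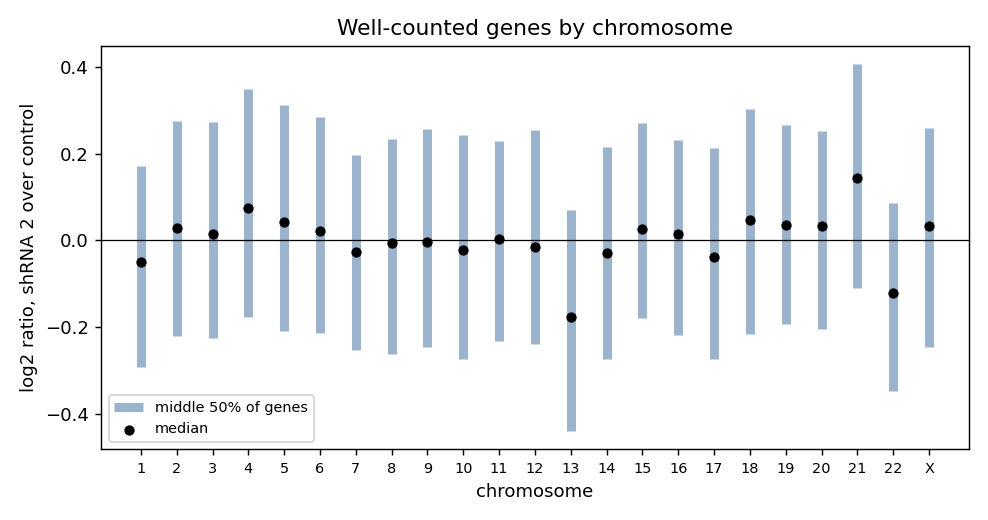
Log2 ratio of CPM, shRNA 2 line over control line (y axis), of the well-counted genes of each nuclear chromosome other than Y (x axis). Points are medians and bars the middle 50% of genes; chromosome 13 has the lowest median at -0.176 and chromosome 21 the highest at 0.144.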

How the data were processed

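RNA of 3 KYSE30 lines was sequenced, 1 library each. The deposited values are raw counts per gene, made by the authors with featureCounts 1.6.4 on hg38 with strand option 1, per the file headers. TopHat2, HTSeq and hg19 are named per the submitters' processing notes, which differs. No library kit is named in the sources used here, so genes overlapping on opposite strands are treated as uncertain (46.0% of the well-counted genes have such overlap). Coordinates are hg38, since all 52179 identifiers shared with GENCODE 29 had identical starts and ends in it. Symbols matched 56558 of 60554 genes. Promoters are RefSeq sequences of GRCh38.p14, and the SNORD12B sequence is from GENCODE 29.

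Counts were scaled by TMM over the compared libraries (edgeR 4.0.16, R 4.3.3; factors 0.993 and 1.007). Ratios have exact conditional 95% intervals from Python 3.11.15 and SciPy 1.17.1. Their computation was checked on simulated Poisson counts, which hold counting error only and no spread between cultures. With 1 library a side, no model was fitted and no test made. Genes needed 30 counts in at least 1 library. At 3 counts the floor was 0.195 CPM in the control and 0.172 CPM in the shRNA 2 library.

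The members, the 40 gene lists and the rules were chosen with earlier results of these data known, and 3 more lists (histones, interferons and receptors, tubulins) after the values were seen. The genes named were drawn from the SNORD12B locus, the 12 highest and 12 lowest protein-coding genes by the interval bound nearest 1 (at least 5 CPM in the higher library), 4 each way of other types, 6 gains and 6 losses in CPM among genes differing at least 1.5-fold, up to 4 genes per list with the largest ratio, genes past 2-fold in the extreme windows of 25 genes, and 4 promoters. Further list members, such as the remaining MCM subunits, were named for their role after their values were seen. Alternatives covered the scaling (among them DESeq2 1.42.0 size factors), the count minimum, the fold rule and opposite-strand overlap.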

Additional observations from a re-analysis of the deposited data

How the results depend on the processing

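With no replicate, another culture's spread is unknown, and low counts limit most genes under 5 CPM. The genes at least 2-fold higher, 277, and the genes at least 2-fold lower, 284, became 2990 and 3512 with a minimum of 1 count, 102 and 125 with a minimum of 100, 49 and 96 with the whole interval past 2-fold, and 173 and 162 without genes overlapping on the opposite strand. Other scalings gave 298 to 315 higher and 257 to 270 lower, shifting every log2 ratio by 0.0143 to 0.0397. For named genes 681 recomputed ratios stayed within the main interval and 23 did not. Of the recomputed list shares 270 stayed within their interval and 3 did not. The median of chromosome 17, -0.038, was 0.002 with upper-quartile scaling. Some other chromosome medians, 20 values, also left their interval. No paired analysis was possible because each line had 1 library.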

Other observations

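By gene type, the log2 ratios of the shRNA 2 line over the control line had a median of 0.13 among 425 well-counted lincRNA genes. Of these, 25 (5.88%) were at least 2-fold higher and 3 (0.706%) lower, against 1.87% and 1.92% of all well-counted genes. The types were not matched for level, and among genes under 5 CPM of any type 6.84% were at least 2-fold higher and 5.66% lower. The 258 processed pseudogenes had a median of -0.184, with 3 higher (1.16%) and 11 lower (4.26%). The 11933 protein-coding genes had a median of -0.006, with 184 higher (1.54%) and 214 lower (1.79%). In 5 equal groups by gene length, the medians ran from -0.028 to 0.04.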
